A study of Homo sapiens with 24 samples.

Results

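HaCaT, an immortalised line of human keratinocytes, carried either an hsa-miR-186 construct or the empty vector, and both were compared after 12 weeks in 100 nM inorganic arsenic (iAs). The 6 libraries of this comparison, 3 per construct, were taken by their labels from 24 libraries in 8 groups, which cross the construct with 0 or 100 nM iAs and week 12 or 29. Both groups described here therefore share the cell line, the dose and the week, and differ in the construct. Per the labels, each construct was carried by 3 clonal lines, and the samples are called independent biological triplicates. Which clone a numbered replicate came from is not stated. The p-values rest on the spread within groups, pooled over all 24 libraries and so mostly over libraries outside this comparison. Libraries of the same clone in different groups count there as independent. A difference between constructs and a difference between the clones that carry them cannot be told apart. The comparison asks how the transcriptome of the arsenic-exposed cells differed with miR-186.

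MicroRNAs are short RNAs that guide Argonaute proteins to messages with matching sites, mostly in 3' UTRs, where they lower translation and message stability. miR-186 has been studied in arsenic-induced skin cancer and in the control of mitosis. Keratinocytes make the layers of the epidermis, in which basal cells, tied to the basement membrane by hemidesmosomes, give rise to differentiating and cornifying cells. Inorganic arsenic binds thiols and is known to act on antioxidant, metallothionein and heat shock genes.

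Levels are FPKM, fragment counts scaled to transcript length and to the size of the library. Changes are miR-186 minus vector on log2(FPKM + 0.5) ± standard error, a scale that understates the change of genes with low levels. Of 14228 genes tested with limma, 131 were higher (0.921%) and 156 lower (1.1%) in the miR-186 libraries at a Benjamini-Hochberg adjusted p under 0.05, which is 2.02% in all. The median change over all genes was −0.04, and 2609 genes (18.3%) had groups whose libraries did not overlap, 8.49% with miR-186 above vector and 9.85% below. At an unadjusted p under 0.05, 898 genes were higher (6.31%) and 1163 lower (8.17%), 14.5% in all, and 45.1% of all genes were above 0. Counts of list members at an unadjusted p or on a side of 0 are to be read against these shares. Of the 287 genes past the test, 75 were higher and 84 lower by more than a log2 change of 1, and 250 were protein coding. Among the called genes the median size was 1.04 for rises and 1.06 for falls.

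The 6 libraries had sums of 723821 to 795579 FPKM and 14164 to 14588 genes at 0.5 FPKM or more. On the first principal component, which held 36.4% of their variance, vector replicate 3 lay at −55.5 and the other 5 libraries between −8.01 and 30.8. Its slope of level over gene GC content was 0.427 log2 units per 10 points, against 0.104 to 0.369 in the others. Without that library 115 genes passed, and the counts without each library ran from 101 to 289. The count fell without every library but miR-186 replicate 3, and without that one 199 of the 289 calls were among the 287. Of the libraries whose loss lowered the count, vector replicate 1 was the mildest, with 189.

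The microRNA gene MIR186 (GRCh38 chromosome 1, 71067631 to 71067716, minus strand) was listed at 0 in all 24 libraries, which hold poly(A) RNA and do not measure a mature microRNA. The labels were therefore not checked by the microRNA itself. Its host gene ZRANB2, a zinc finger protein of splicing, stood at 29.4, 29.7 and 26.7 FPKM in the vector libraries and at 36.3, 35.5 and 32.4 FPKM in the miR-186 libraries. Every miR-186 library lay above every vector library, and the change of 0.28 ± 0.22 did not pass the test (adjusted p = 0.593). One mature arm of the hairpin has an entry in the RefSeq table used here (GRCh38.p14, chr1:71067642-71067663, minus strand), and it is shown because its seed defines the sites counted next. Capitals mark the seed, bases 2 to 8.

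hsa-miR-186-3p: gCCCAAAGgugaauuuuuuggg

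A full match to that seed followed by A, the 8mer CTTTGGGA, was found in the longest annotated 3' UTR of 2092 tested genes. Their median change was −0.03, with 27 higher (1.29%) and 28 lower (1.34%). The 1330 genes with the 7mer CTTTGGG alone had a median of −0.04, with 14 higher (1.05%) and 13 lower (0.977%). The 5505 genes without the 6-base core had a median of −0.09, with 41 higher (0.745%) and 65 lower (1.18%). By their medians, genes with the site thus lay no lower here than genes without it. At 0 nM and week 12 the medians were −0.06 for the 8mer, 0.01 for the 7mer alone and −0.04 without the core. Genes with the 8mer had longer 3' UTRs, with a median of 3269.5 bases against 851 bases. The other arm, hsa-miR-186-5p, which most work on miR-186 concerns, was not analysed here, so these counts bear on sites of the 3p arm alone.

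Of 20 genes reported as miR-186 targets, 0 rose and 0 fell with limma, and 1 was lower at an unadjusted p under 0.05. Their median was −0.23, with 14 of 20 below 0, beside −0.04 over all genes. The drug efflux pump gene ABCB1 stood at 1.00, 1.66 and 1.52 FPKM in vector and 0.891, 0.103 and 0.139 FPKM in miR-186 libraries, a change of −1.20 ± 0.52 (adjusted p = 0.284). The cyclin-dependent kinase gene CDK2 changed by −0.44 ± 0.23 (adjusted p = 0.397), the kinase gene MAP3K2 by −0.27 ± 0.16 and the nuclear receptor gene NR5A2 by −0.76 ± 0.46. Of 21 genes for microRNA processing and Argonaute proteins, 0 passed in either direction, with 3 higher and 1 lower unadjusted. DICER1, the enzyme that cuts hairpins into mature microRNAs, stood at 22.8, 22.4 and 20.1 FPKM in vector and 15.3, 11.1 and 16.6 FPKM in miR-186 libraries. These did not overlap, with −0.60 ± 0.19 (adjusted p = 0.112), and DICER1 lies in a stretch of chromosome 14 where many genes were lower.

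Several of the large differences were in genes near 0 in the libraries of 1 construct. LINC01278, a long noncoding RNA, was listed at 0.0105, 0 and 0 FPKM in the vector libraries and at 4.14, 5.82 and 4.30 FPKM in the miR-186 libraries. The groups were far apart, and the gene rose by 3.37 ± 0.25 (adjusted p = 9.967e-08). P2RX5, an ATP-gated ion channel, stood at 0, 0.0815 and 0.0337 FPKM against 2.40, 3.39 and 2.67 FPKM, a rise of 2.62 ± 0.28 (adjusted p = 1.447e-05). GSPT2, a translation termination factor, rose by 2.36 ± 0.24 from at most 0.173 FPKM in any vector library to at least 2.41 FPKM in any miR-186 library. HDX, a homeobox gene, rose by 2.12 ± 0.29 and INA, an intermediate filament protein of neurons, by 2.14 ± 0.30. Of the 15 largest rises, LINC01278, GSPT2, HDX and ANOS1, a secreted matrix protein, lie on chromosome X, where 6 of 422 genes were higher (1.42%). ANOS1 stood at 2.95, 3.50 and 0.882 FPKM against 11.1, 25.6 and 13.3 FPKM and rose by 2.595 ± 0.59 (adjusted p = 0.0247). Its adjusted p was 0.125 without miR-186 replicate 2, 0.132 without vector replicate 3 and 0.0519 without miR-186 replicate 1.

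CADM1, an adhesion molecule of the immunoglobulin family, stood at 0.0594, 0.112 and 0.153 FPKM in vector and 6.79, 3.07 and 1.07 FPKM in miR-186 libraries. The miR-186 libraries spread widely but all lay above vector, with a rise of 2.51 ± 0.49 (adjusted p = 0.0104, and 0.0752 without miR-186 replicate 1). CENPV, a centromere protein, stood at 7.57, 3.14 and 5.26 FPKM against 32.5, 24.4 and 17.5 FPKM and rose by 2.15 ± 0.40. It was the single riser among 63 mitosis and spindle checkpoint genes, of which 0 fell and whose median was −0.31, with 56 of 63 below 0. At an unadjusted p under 0.05 in limma, 1 of the 63 was higher and 1 lower. The list median was 0.12 at 0 nM and week 12, −0.86 at 100 nM and week 29 and −0.16 at 0 nM and week 29. CENPV missed the threshold without miR-186 replicate 1 (adjusted p = 0.0513) and without vector replicate 2 (adjusted p = 0.0546), and the list median ran from −0.61 to −0.15 over the fits without 1 library. ZNF254, a zinc finger protein, rose by 2.19 ± 0.26, and TDRP by 2.19 ± 0.30. The gene with the largest rise of all, 3.63 ± 0.34, is ENSG00000285155 on chromosome 2, which has no symbol in the name table and overlaps other genes on its strand, so its reads are uncertain.

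H19, an imprinted long noncoding RNA, had the largest fall. It stood at 183.6, 66.2 and 15.7 FPKM in the vector libraries and at 3.63, 7.30 and 0.170 FPKM in the miR-186 libraries. Levels varied widely within each construct, the groups did not overlap, and H19 fell by 4.39 ± 0.86 (adjusted p = 0.00984, and 0.0520 without vector replicate 1). ZFP42, a zinc finger gene known from pluripotent cells, stood at 5.51, 6.71 and 6.09 FPKM against 0.0892, 0.0776 and 0.116 FPKM. It was tight within both groups and fell by 3.47 ± 0.25 (adjusted p = 9.967e-08). NEFL, the neurofilament light chain, stood at 13.97, 20.3 and 40.9 FPKM against 1.34, 1.23 and 2.13 FPKM and fell by 3.51 ± 0.46. PRR5L, a partner of mTOR complex 2, stood at 7.81, 8.25 and 8.40 FPKM against 0.534, 0.339 and 0.387 FPKM and fell by 3.24 ± 0.37.

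**Figure D1:**
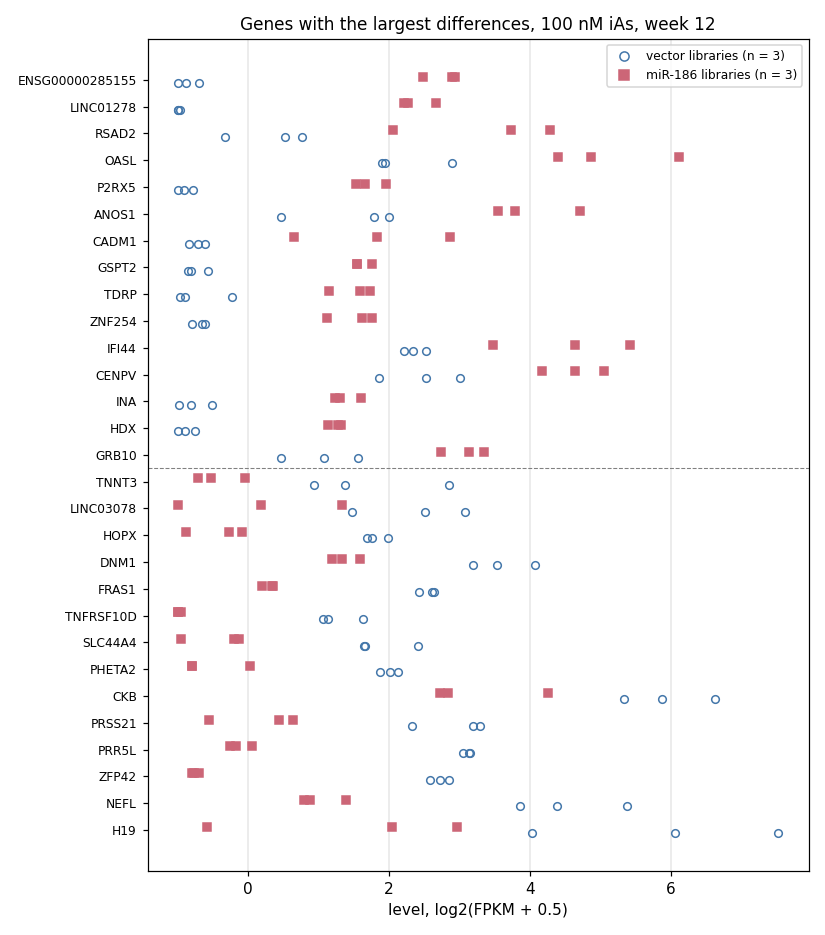
Level of the genes with the largest rises (above the dashed line) and falls (below it) in each library, on log2(FPKM + 0.5), with open circles for the 3 vector and squares for the 3 miR-186 libraries. The groups do not overlap in any gene shown, which the naming rule requires, and LINC01278, P2RX5, HDX, ZFP42 and TNFRSF10D lie near 0 FPKM in 1 construct.

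PRSS21, a membrane-anchored serine protease, stood at 9.30, 8.60 and 4.49 FPKM against 0.850, 0.183 and 1.05 FPKM and fell by 2.76 ± 0.37. FRAS1, a matrix protein of the epidermal basement membrane, stood at 5.58, 4.85 and 5.70 FPKM against 0.780, 0.646 and 0.765 FPKM and fell by 2.25 ± 0.28 (adjusted p = 1.612e-04). SLC44A4, a membrane transporter, fell by 2.33 ± 0.30, and DNM1, a dynamin of endocytosis, by 2.23 ± 0.35. PHETA2, which acts in endosomal trafficking, fell by 2.52 ± 0.22, and TNNT3, a troponin, by 2.15 ± 0.41. CKB, the brain-type creatine kinase, fell by 2.67 ± 0.68 (adjusted p = 0.0475). CKB missed the threshold without vector replicate 1, 2 or 3 (0.0625, 0.185 and 0.122) and without miR-186 replicate 1 or 3 (0.190 and 0.110). LINC03078 fell by 2.18 ± 0.54 (adjusted p = 0.0393), and missed the threshold without miR-186 replicate 1 or 3 or vector replicate 1 or 2, with adjusted p from 0.0966 to 0.173.

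Interferon-stimulated genes are switched on by type I interferon through the receptor, JAK kinases and the ISGF3 complex, and their products block viral RNA and protein. Of 40 such genes tested, 5 rose and 0 fell, and 10 were higher and 0 lower at an unadjusted p under 0.05, a cut that 6.31% and 8.17% of all genes passed. The list median was 0.28 beside −0.04 over all genes, with 23 of 40 above 0. Summed over the 40, levels went the other way, at 1589 to 1855 FPKM in vector and 1444 to 1532 FPKM in miR-186 libraries. Such a sum follows the members of highest level. Promoters of 4 of the 5 members that rose are shown first, 1 for each gene, to set beside their values the GAAA repeats that they hold, since repeats with the longer spacer are the core of the element that ISGF3 is known to bind. Sequences are from RefSeq (GRCh38.p14), 250 bases before to 50 after a start, written in the direction of the gene. Capitals mark GAAANNGAAA or GAAANGAAA on either strand, so that TTTC marks the opposite strand, and matches that overlap run together.

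IFI44 (chr1:78649581-78649880, plus strand): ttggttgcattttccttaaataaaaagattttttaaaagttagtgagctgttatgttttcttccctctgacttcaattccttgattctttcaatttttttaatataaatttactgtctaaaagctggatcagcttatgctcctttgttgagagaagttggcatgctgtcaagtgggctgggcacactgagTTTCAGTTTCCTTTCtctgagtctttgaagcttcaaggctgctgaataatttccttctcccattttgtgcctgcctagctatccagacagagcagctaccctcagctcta
HERC5 (chr4:88456869-88457168, plus strand): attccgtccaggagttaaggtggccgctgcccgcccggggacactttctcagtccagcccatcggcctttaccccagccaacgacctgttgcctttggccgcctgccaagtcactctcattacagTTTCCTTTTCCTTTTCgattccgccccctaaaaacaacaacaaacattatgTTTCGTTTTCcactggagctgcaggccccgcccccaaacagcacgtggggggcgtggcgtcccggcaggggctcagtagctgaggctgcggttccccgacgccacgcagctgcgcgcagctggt
RSAD2 (chr2:6877527-6877826, plus strand): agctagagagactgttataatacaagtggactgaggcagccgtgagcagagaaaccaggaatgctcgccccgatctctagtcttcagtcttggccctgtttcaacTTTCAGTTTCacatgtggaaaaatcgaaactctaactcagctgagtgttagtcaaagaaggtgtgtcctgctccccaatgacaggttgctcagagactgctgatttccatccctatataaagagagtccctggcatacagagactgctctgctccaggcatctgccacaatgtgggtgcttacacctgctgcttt
CMPK2 (chr2:6865770-6866069, minus strand): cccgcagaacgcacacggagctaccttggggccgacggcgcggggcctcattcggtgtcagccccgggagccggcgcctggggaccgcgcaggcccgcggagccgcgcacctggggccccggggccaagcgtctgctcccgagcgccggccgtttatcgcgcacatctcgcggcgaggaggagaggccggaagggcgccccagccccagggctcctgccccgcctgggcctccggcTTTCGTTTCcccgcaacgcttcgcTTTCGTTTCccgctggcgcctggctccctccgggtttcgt

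The motif GAAANNGAAA was in 3.57% and GAAANGAAA in 3.12% of 35116 promoters of this length, and 6.4% held at least 1 of them. Promoters were in the table for 32 of the 40 genes, and 30 of the 32 held a match (93.8%), against 7.83% of all genes. The 4 risers in the table have 8 promoters there, of which 6 held a match (75.0%), against 36 of 43 for the list (83.7%). GAAANNGAAA was in a promoter of 3 of these 4 genes, and in CMPK2 only the shorter spacer was found, in the promoter shown. RSAD2 has another promoter, not shown (chr2:6865635-6865934), with 4 matches of the shorter spacer. It overlaps the CMPK2 promoter shown, so the 2 genes share some of these matches. OASL has no entry.

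OASL, an antiviral protein related to the oligoadenylate synthetases (chromosome 12, 121019111 to 121039242), stood at 3.21, 3.34 and 6.89 FPKM in the vector libraries and at 28.6, 20.6 and 68.7 FPKM in the miR-186 libraries. The lowest miR-186 library was above the highest vector library, and OASL rose by 2.89 ± 0.39 (adjusted p = 2.894e-04). RSAD2, which encodes viperin, an enzyme that makes a chain-terminating nucleotide, stood at 0.931, 0.294 and 1.20 FPKM against 12.8, 3.67 and 18.9 FPKM. It rose by 3.04 ± 0.61 (adjusted p = 0.0110). CMPK2, a mitochondrial nucleotide kinase whose gene overlaps RSAD2 head to head, stood at 1.38, 0.662 and 0.638 FPKM against 6.67, 2.51 and 5.24 FPKM. It rose by 1.88 ± 0.45 (adjusted p = 0.0363). The strand setting of the counting is not given in the sources used here, so reads from the stretch that RSAD2 and CMPK2 share are uncertain.

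IFI44, a cytoplasmic protein induced by interferon, stood at 5.22, 4.11 and 4.55 FPKM in vector and at 24.4, 10.6 and 42.2 FPKM in miR-186 libraries, a rise of 2.16 ± 0.47 (adjusted p = 0.0203). HERC5, the ligase that attaches ISG15 to proteins, stood at 0.249, 0.150 and 0.370 FPKM against 2.94, 0.783 and 3.81 FPKM, a rise of 1.83 ± 0.44 (adjusted p = 0.0371). In all 5 risers miR-186 replicate 2 was the lowest of the miR-186 libraries and still above every vector library. Among members that did not pass, DDX60 changed by 1.19 ± 0.36 (adjusted p = 0.103), HERC6 by 1.12 ± 0.36 (0.126), MX2 by 1.00 ± 0.39 (0.228) and MX1 by 0.98 ± 0.38 (0.225). These 4 were chosen after their values were seen. At the other end, IFITM1 changed by −0.70 ± 0.46 and TRIM22 by −0.58 ± 0.35, and the common marker ISG15 by 0.34 ± 0.77. The last 3 were also chosen after their values were seen.

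Of the 40 genes, 1 passed without miR-186 replicate 1 or without vector replicate 2, and 2 passed without miR-186 replicate 3 or without vector replicate 3. Without vector replicate 1 or miR-186 replicate 2, 4 and 6 passed. The list median ran from 0.07 to 0.54 over these fits. OASL passed in each fit without 1 library. Of 24 genes of interferon sensing and signalling, 0 passed with limma (0 higher and 1 lower unadjusted), with a median of −0.08. STING1, the sensor adaptor for cytosolic DNA, had the smallest p (28.6 against 19.5 FPKM, −0.55 ± 0.18, adjusted p = 0.120). Of 19 genes of MHC class I presentation, which interferon also raises, 0 passed (0 higher and 1 lower unadjusted), and 17 of 19 were below 0 with a median of −0.25. Among them PSMB8 changed by −0.43 ± 0.17 and B2M by −0.46 ± 0.28.

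**Figure D2:**
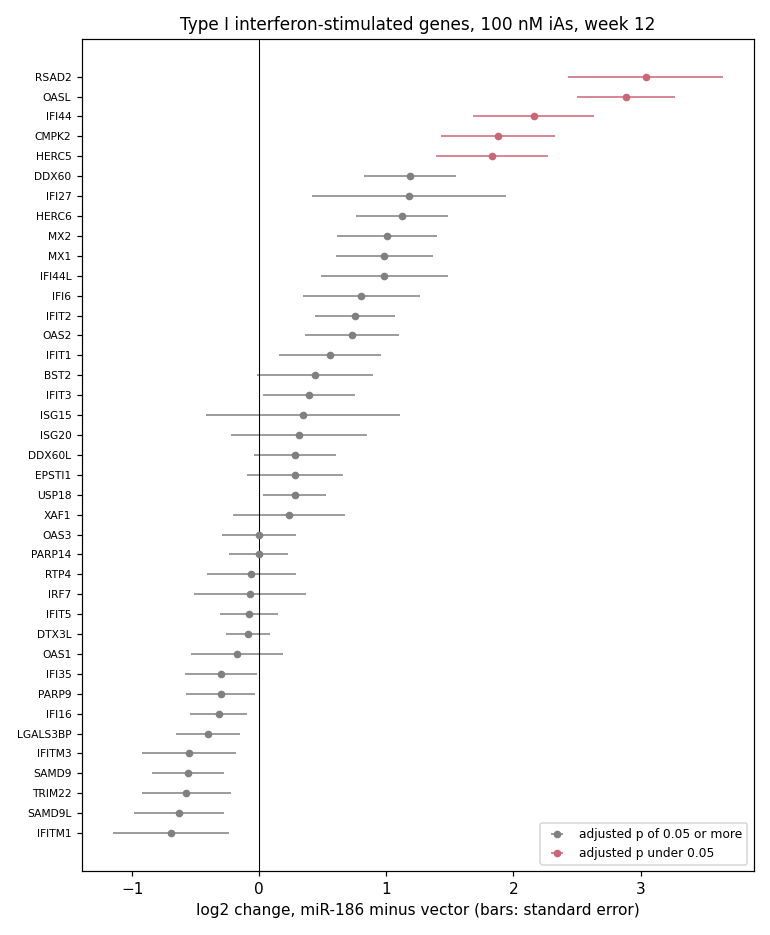
Log2 change with its standard error for 39 interferon-stimulated genes, ordered by change, with genes at an adjusted p under 0.05 in colour. The 5 risers lie between 1.83 and 3.04, and the other members run from −0.70 to 1.19.

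Among 25 cytokines and NF-kB targets, 1 rose and 1 fell, and 6 were lower and 1 higher unadjusted. The median was −0.40, with 19 of 25 below 0, beside unadjusted shares of 8.17% lower and 6.31% higher over all genes. TNFAIP2, an abundant TNF-induced protein of membrane protrusions (chromosome 14, 103123442 to 103137439), stood at 824.8, 717.4 and 732.6 FPKM in vector and at 181.1, 163.4 and 254.2 FPKM in miR-186 libraries. It was tight within both groups and fell by 1.95 ± 0.29 (adjusted p = 7.271e-04). CCL5, a chemokine that draws T cells, stood at 0.530, 0.361 and 1.30 FPKM against 3.41, 1.99 and 5.19 FPKM and rose by 1.70 ± 0.37 (adjusted p = 0.0185). It missed the threshold without miR-186 replicate 1 (0.0753) or 3 (0.0725) and without vector replicate 1 (0.0664) or 2 (0.106). The neutrophil chemokine CXCL1 stood at 67.9, 72.4 and 44.7 FPKM against 28.4, 22.0 and 28.7 FPKM, apart between groups, with −1.19 ± 0.34 (adjusted p = 0.0748). IL1RN, the interleukin 1 receptor antagonist, changed by −0.90 ± 0.29 (adjusted p = 0.126).

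Of 25 genes of cell death receptors, necroptosis and the BCL2 family, 1 rose and 2 fell, with a median of −0.15. TNFRSF10D, a decoy receptor for the death ligand TRAIL, stood at 1.59, 2.59 and 1.69 FPKM in vector and at 0.0190, 0 and 0 FPKM in miR-186 libraries. It fell by 2.26 ± 0.19 (adjusted p = 7.186e-07). RIPK3, the kinase that starts necroptosis (chromosome 14, 24336021 to 24340045), stood at 4.40, 4.43 and 3.29 FPKM against 0.577, 0.436 and 0.889 FPKM and fell by 2.01 ± 0.20 (adjusted p = 7.164e-06). BNIP3, a mitochondrial protein of mitophagy and a hypoxia target, stood at 0.652, 0.529 and 0.828 FPKM against 4.45, 1.88 and 5.70 FPKM and rose by 1.85 ± 0.39 (adjusted p = 0.0145). BNIP3 missed the threshold without miR-186 replicate 1 (0.0778) or 3 (0.0617) or vector replicate 2 (0.0695). It was the single call among 32 hypoxia and glycolysis genes, whose median was −0.03. The death receptor TNFRSF10B, which binds TRAIL and signals, changed by 0.41 ± 0.16 (adjusted p = 0.230).

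Imprinted and WNT genes held calls in both directions. Of 16 imprinted genes H19 fell and GRB10, an adaptor that restrains insulin receptor signalling, rose, with a median of 0.16. GRB10 stood at 1.61, 0.876 and 2.43 FPKM against 9.65, 6.13 and 8.29 FPKM and changed by 2.04 ± 0.51 (adjusted p = 0.0412). Leaving out any 1 of the 6 libraries ended that call, with adjusted p from 0.0587 to 0.170. Of 22 WNT ligands, inhibitors and targets, 1 rose and 1 fell, with a median of −0.15. DKK1, a secreted WNT inhibitor, stood at 247.5, 310.4 and 248.2 FPKM in vector and at 498.6, 558.4 and 555.1 FPKM in miR-186 libraries, a rise of 1.00 ± 0.23 (adjusted p = 0.0253). DKK1 kept its call without vector replicate 2 and missed it without each of the other 5, with adjusted p from 0.0594 to 0.0946. The ligand WNT4 stood at 4.15, 3.88 and 3.93 FPKM against 0.749, 1.24 and 1.03 FPKM and fell by 1.59 ± 0.25 (adjusted p = 0.00145).

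Keratinocyte identity was present in both groups. The 10 keratinocyte markers summed to 3024 to 4945 FPKM in the vector libraries and to 1975 to 2622 FPKM in the miR-186 libraries, so the sums did not overlap. With limma 0 of the 10 passed, 9 were below 0 and 4 were lower unadjusted, with a median of −0.47. In bulk RNA, fewer cells of a kind and less RNA per cell cannot be told apart. Summed markers of other cell types were low in vector and miR-186 libraries, at 4.09 to 8.28 against 3.49 to 22.9 FPKM for fibroblasts, 5.48 to 11.2 against 6.84 to 7.91 for melanocytes and 3.77 to 5.74 against 3.07 to 4.20 for leukocytes. They were 4.77 to 15.8 against 6.70 to 16.6 FPKM for endothelium and 18.0 to 45.6 against 23.1 to 39.2 for Merkel and nerve cells. TYR, CD3D, TEK and ATOH1 were among the members at 0 in all 6 libraries, but other members of these lists were not. Single markers reached 15.4 FPKM for fibroblasts, 9.57 for melanocytes, 5.31 for leukocytes, 16.4 for endothelium and 44.1 for Merkel and nerve cells. Of the 10 markers of these types with enough signal to test, 0 passed limma, with 1 higher unadjusted.

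Of 24 basal keratinocyte and hemidesmosome genes, 2 rose and 0 fell, with a median of −0.24 and 2 higher and 5 lower unadjusted. DST, which encodes the hemidesmosome plakin BPAG1, stood at 65.0, 56.8 and 49.4 FPKM in vector and at 103.5, 110.3 and 127.9 FPKM in miR-186 libraries. It rose by 0.99 ± 0.17 (adjusted p = 0.00329). SOX9, which is active in stem cells of the hair follicle, stood at 13.8, 10.2 and 9.93 FPKM against 19.3, 27.5 and 18.7 FPKM and rose by 0.92 ± 0.17 (adjusted p = 0.00709). Other members of the same list lay lower. The basal keratin KRT5 stood at 1035, 1512 and 1866 FPKM against 630.0, 771.7 and 924.7 FPKM, apart between groups, with −0.90 ± 0.26 (adjusted p = 0.0849). Collagen XVII, COL17A1, changed by −0.72 ± 0.26 (adjusted p = 0.176), and the laminin 332 chain LAMB3 by −0.80 ± 0.30 (adjusted p = 0.209).

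Of 28 stress keratins, S100 proteins and SERPINB inhibitors, which mark activated and inflamed epidermis, 0 rose and 2 fell. A further 8 were lower at an unadjusted p under 0.05 alone, 25 of 28 were below 0, and the median was −0.75, beside 8.17% of all genes lower at that cut and 45.1% above 0. SERPINB13, an inhibitor of cathepsins, stood at 168.3, 135.2 and 255.7 FPKM against 67.4, 67.1 and 98.7 FPKM and fell by 1.23 ± 0.30 (adjusted p = 0.0366). S100A14, a calcium-binding protein, stood at 464.9, 646.0 and 776.3 FPKM against 332.6, 431.4 and 366.2 FPKM and fell by 0.72 ± 0.18 (adjusted p = 0.0388). SERPINB7 changed by −1.27 ± 0.34 (adjusted p = 0.0570) and S100A16 by −0.78 ± 0.23 (adjusted p = 0.0887). With limma 0 of the 28 passed without vector replicate 3 or miR-186 replicate 1, 1 passed without miR-186 replicate 2 or 3 or vector replicate 2, and 3 without vector replicate 1. After a correction for GC content 4 fell, and 1 when each 20 Mb window was also centred on its own median (window centring, an alternative chosen after seeing the data). The list median ran from −0.82 to −0.55.

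Of 22 differentiation and cornified envelope genes, 0 rose and 1 fell, with a median of −0.32 and 2 higher and 7 lower unadjusted. HOPX, a homeodomain protein of differentiating keratinocytes, stood at 2.71, 3.44 and 2.89 FPKM in vector and 0.438, 0.330 and 0.0414 FPKM in miR-186 libraries, a fall of 2.22 ± 0.32 (adjusted p = 4.961e-04). The suprabasal keratin KRT10 went the other way, at 50.4, 46.6 and 49.5 FPKM against 95.9, 156.9 and 70.6 FPKM, with 1.06 ± 0.29 (adjusted p = 0.0623, and 0.0282 without miR-186 replicate 3). Filaggrin, FLG, changed by −1.72 ± 0.49 (adjusted p = 0.0744) and the cross-linking enzyme TGM1 by −1.19 ± 0.35 (adjusted p = 0.0863). Of 11 desmosome genes DSG3, the desmosomal cadherin of basal layers, fell by 0.95 ± 0.18 (adjusted p = 0.00869). It stood at 99.8, 99.0 and 125.3 FPKM against 55.5, 50.2 and 61.0 FPKM, with an adjusted p of 0.0536 without vector replicate 3. The desmosome list had a median of −0.25 and 9 of 11 below 0.

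Of 28 adherens and tight junction genes CADM1 rose and CLDN16, a claudin, fell by 0.76 ± 0.19 (adjusted p = 0.0439), a call that was lost without any 1 library, with adjusted p from 0.0665 to 0.162. The median was −0.22. Of 27 genes of epithelial-mesenchymal transition 0 passed with limma (2 higher and 1 lower unadjusted), with a median of −0.18. The smallest p was that of MMP10, a matrix metalloproteinase (2.31 against 13.3 FPKM, 2.00 ± 0.73, adjusted p = 0.183), while TAGLN changed by −1.11 ± 0.45 and SNAI2 by 0.52 ± 0.24. Of 10 simple and suprabasal keratins 0 passed (1 higher and 0 lower unadjusted), with a median of 0.17.

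**Figure D3:**
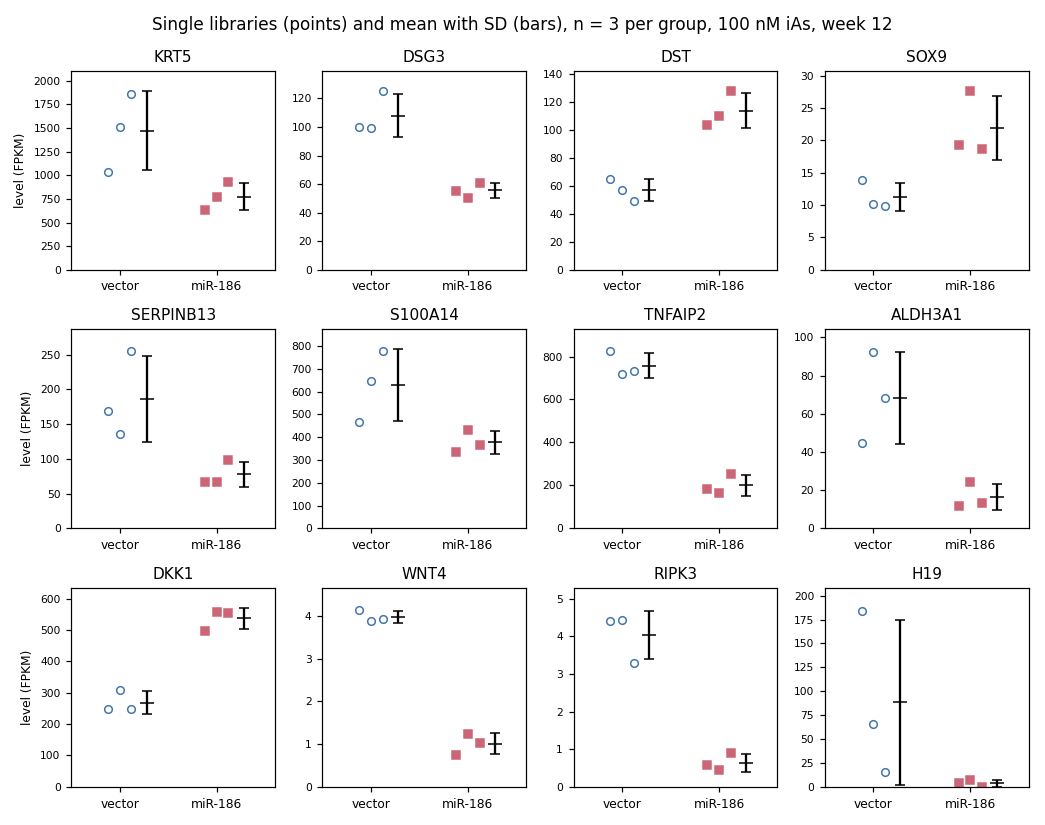
FPKM of 12 genes in each library, with the mean and SD of each group of 3 as bars and every axis starting at 0. The 12 were picked from the named genes, and all but KRT5 (limma, adjusted p = 0.0849) passed the test. The groups do not overlap in any of the 12, as in 286 of the 287 called genes and 18.3% of all genes. The vector libraries of H19 spread from 15.7 to 183.6 FPKM.

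Of 32 EGFR ligands and MAPK output genes, 1 rose and 1 fell, with a median of 0.08. SPRY1, a feedback inhibitor of receptor tyrosine kinases, stood at 0.603, 0.283 and 0.322 FPKM against 2.886, 2.502 and 1.6 FPKM and rose by 1.64 ± 0.40 (adjusted p = 0.0371). It missed the threshold without each library but miR-186 replicate 3, with adjusted p from 0.0541 to 0.157. Epigen, EPGN, an EGFR ligand, stood at 7.004, 8.18 and 2.09 FPKM against 0.629, 0.584 and 2.12 FPKM and fell by 1.91 ± 0.46 (adjusted p = 0.0371). EPGN was the 1 called gene of 287 whose groups overlapped, through replicate 3 of both constructs. It missed the threshold without miR-186 replicate 1 or 2 or vector replicate 1 or 2, with adjusted p from 0.116 to 0.168. The receptor gene ERBB2 changed by 0.74 ± 0.23 (adjusted p = 0.112).

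Lists of the arsenic response held few calls. Of 30 NRF2 antioxidant genes 0 passed with limma (1 higher and 2 lower unadjusted), with a median of 0.08. SRXN1, which repairs peroxiredoxins, changed by 0.54 ± 0.20 and GPX2, a glutathione peroxidase, by −0.95 ± 0.47. The 5 metallothioneins, which bind metals, had a median of −0.78, with 0 past the test and 4 lower unadjusted. MT1X stood at 137.6, 174.3 and 214.7 FPKM in vector and at 71.0, 104.9 and 85.6 FPKM in miR-186 libraries, which did not overlap, with −1.0002 ± 0.46 (adjusted p = 0.326). MT2A stood at 96.0, 119.4 and 307.0 FPKM against 53.2, 66.5 and 84.4 FPKM, with −1.18 ± 0.56. Without vector replicate 3 the metallothionein median was −0.21.

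Of 12 genes of arsenic methylation and transport 0 passed (0 higher and 1 lower unadjusted), with a median of −0.30, and the exporter ABCC1 changed by −0.41 ± 0.22. Of 21 heat shock genes 0 passed (3 higher and 1 lower unadjusted), with a median of 0.02. HSPA6, a strictly inducible HSP70, stood at 0.187, 0.110 and 0.101 FPKM against 7.16, 5.15 and 0.626 FPKM, with 2.53 ± 0.95 (adjusted p = 0.204). Its groups did not overlap, and miR-186 replicate 3 lay far below the other miR-186 libraries. Of 22 genes of the unfolded protein and integrated stress response 0 passed (1 higher and 0 lower unadjusted), with ATF3 at 0.74 ± 0.31. Of 24 p53 targets CCNG1, cyclin G1, rose by 0.84 ± 0.22 (adjusted p = 0.0494), a call that was lost without any 1 library (adjusted p from 0.0753 to 0.184). DDB2, a DNA damage sensor, changed by −0.73 ± 0.21 (adjusted p = 0.0790).

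Of 10 genes of the aryl hydrocarbon receptor (AHR) pathway, 0 rose and 1 fell. ALDH3A1, an aldehyde dehydrogenase abundant in some epithelia, stood at 44.5, 92.4 and 68.1 FPKM in vector and 11.9, 24.1 and 13.1 FPKM in miR-186 libraries. It fell by 2.04 ± 0.39 (adjusted p = 0.00815). The call was lost without miR-186 replicate 1 (0.0529) or vector replicate 2 (0.0578). CYP1A1, the main AHR target, changed by 1.01 ± 0.37 in the other direction (adjusted p = 0.192). Of 29 genes of cholesterol and fatty acid synthesis 0 passed with limma, 7 were lower and 1 higher unadjusted, and the median was −0.42. SREBF1, a master regulator of lipid synthesis, changed by −1.19 ± 0.31 (232.7 against 96.0 FPKM, adjusted p = 0.0527) and the desaturase FADS2 by −1.39 ± 0.37 (adjusted p = 0.0551). Without vector replicate 3 the list median was −0.08. After a GC correction 3 members fell, and 2 with window centring as well, where SREBF1 (adjusted p = 0.00778) and FADS2 (0.0378) both passed. SREBF1 also passed without vector replicate 1 (0.0203) and FADS2 without miR-186 replicate 2 (0.0306). The 13 messages of the mitochondrial genome were all above 0, with a median of 0.28, 0 past the test and 1 higher unadjusted.

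The calls were uneven along the genome. On chromosome 14, 0 of 500 genes were higher and 37 lower (7.4%), and on chromosome 17, 48 of 881 were higher (5.45%) and 5 lower, beside 0.921% higher and 1.1% lower over all genes. Chromosome 16 had 1 higher and 16 lower of 657. The calls lay close together within 3 stretches, whose limits were chosen after the values were seen. From 60 to 120 Mb of chromosome 14, 30 of 277 genes were lower and 0 higher, the median was −0.57 and 9.39% of genes were above 0. From 28 to 43 Mb of chromosome 17, 44 of 219 were higher and 0 lower, the median was 0.47 and 88.6% were above 0. From 0 to 32 Mb of chromosome 16, 16 of 353 were lower and 0 higher, with a median of −0.42. After a GC correction 60 genes of these stretches were lower on chromosome 14, 72 higher on chromosome 17 and 32 lower on chromosome 16. Window centring takes out a shift shared by a window by construction. With it as well, 4 were lower and 5 higher on chromosome 14, 19 higher and 4 lower on chromosome 17, and 3 lower and 4 higher on chromosome 16. The chromosome 17 stretch crosses a window edge at 40 Mb and kept a median of 0.10. The shifts were not particular to this setting. In the same order, the medians of the stretches were −0.55, 0.54 and −0.21 at 0 nM and week 12. They were −0.40, 0.37 and −0.37 at 100 nM and week 29, and −0.42, 0.47 and −0.28 at 0 nM and week 29.

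**Figure D4:**
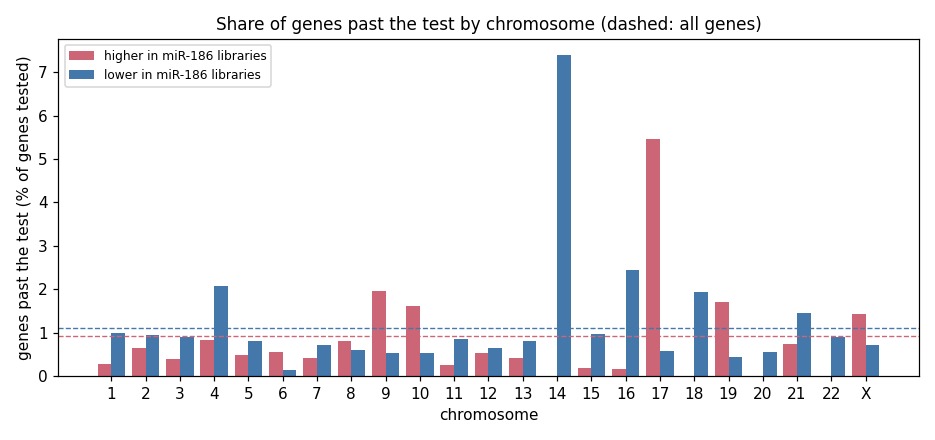
Percent of tested genes on each chromosome that were higher (left bars) or lower (right bars) in the miR-186 libraries, with dashed lines at 0.921% and 1.1% for all genes. Chromosome 14 reaches 7.4% lower and chromosome 17 reaches 5.45% higher.

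The stretches were chosen from these same 6 libraries, so the values of single libraries describe them and add no support. The genes of the chromosome 14 stretch had median deviations from their mean over the 6 libraries of 0.26, 0.27 and 0.28 in vector and −0.40, −0.38 and 0.00 in miR-186 libraries, so that miR-186 replicate 3 lay between the groups. On chromosome 17 the vector libraries were at −0.29, −0.28 and −0.26 and the miR-186 libraries at 0.24, 0.37 and 0.17. On chromosome 16 they were at 0.10, 0.13 and 0.35 against −0.26, −0.03 and −0.25. These are relative to genes outside chromosomes 14, 16 and 17. The 3 medians kept their sign without any 1 library. On chromosome 14, 6 genes were lower without miR-186 replicate 1 or 2 or vector replicate 2, 8 and 11 without vector replicates 3 and 1, and 66 without miR-186 replicate 3. Over the same fits 18 to 39 genes were higher on chromosome 17, the fewest without miR-186 replicate 2, and 4 to 9 lower on chromosome 16, the fewest without vector replicate 2. The part that the number of gene copies plays in the 3 stretches was not tested.

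**Figure D5:**
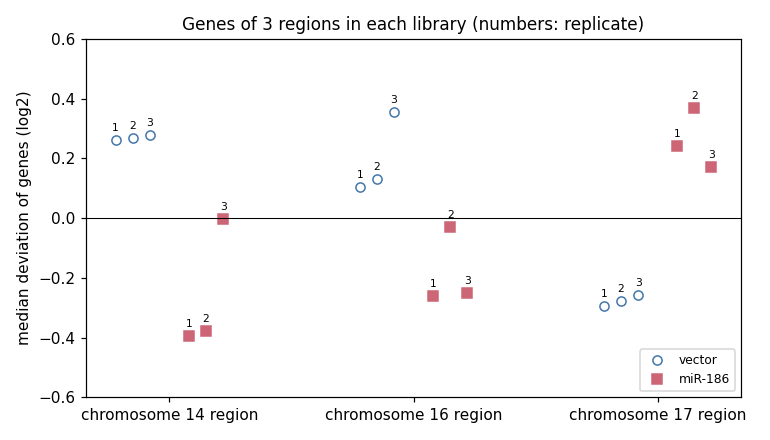
Median deviation (log2) of the genes of the 3 stretches in each library, with replicate numbers beside the points, open circles for vector and squares for miR-186. On chromosome 14 the vector libraries lie at 0.26 to 0.28 and miR-186 replicate 3 at 0.00, and on chromosome 17 the groups are furthest apart.

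The chromosome 14 stretch holds TNFAIP2, CKB and DICER1. It also holds SPTLC2, a subunit of the enzyme that starts sphingolipid synthesis, which stood at 26.7, 30.9 and 29.4 FPKM against 14.4, 10.5 and 15.2 FPKM and fell by 1.10 ± 0.18 (adjusted p = 0.00201). PLEK2, a pleckstrin of the cell cortex, fell by 1.03 ± 0.16 and TTC8, a part of the BBSome of cilia, by 0.95 ± 0.18. With the GC correction and window centring, TNFAIP2 fell by 1.32 ± 0.19 (adjusted p = 0.000856) and SPTLC2 by 0.64 ± 0.12 (adjusted p = 0.0105). PLEK2 (−0.47 ± 0.20, adjusted p = 0.243), TTC8 (−0.38 ± 0.15, adjusted p = 0.214) and CKB (−2.02 ± 0.61, adjusted p = 0.0959) did not pass there. RIPK3 lies on chromosome 14 outside that stretch and was −1.83 ± 0.18 with the same centring.

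On chromosome 17, CASC3, a core protein of the exon junction complex, stood at 29.2, 24.7 and 27.5 FPKM in vector and at 69.4, 72.1 and 64.4 FPKM in miR-186 libraries and rose by 1.33 ± 0.19 (adjusted p = 4.310e-04). MED1, a Mediator subunit, stood at 16.99, 18.2 and 17.6 FPKM against 39.5, 33.9 and 37.5 FPKM and rose by 1.05 ± 0.15 (adjusted p = 4.961e-04). WIPF2, which binds WASP proteins, rose by 0.99 ± 0.15. Centred by window, CASC3 was at 1.21 ± 0.18, WIPF2 at 0.84 ± 0.14 and MED1 at 0.51 ± 0.11, and each passed. A window edge at 40 Mb cuts the stretch, and the medians before correction were 0.43 from 20 to 40 Mb and 0.07 from 40 to 60 Mb. Centring therefore took less from genes past 40 Mb, and a call that stays does not show that a gene stands apart from the stretch. CCL5 lies in the same stretch and was at 1.24 ± 0.37 (adjusted p = 0.0926) when centred. On chromosome 16, PRSS21, the retriever subunit VPS35L (−0.95 ± 0.16), the complex I subunit NDUFB10 (−0.80 ± 0.14) and the RNA polymerase III subunit POLR3K (−0.96 ± 0.19) fell. POLR3K missed the threshold without miR-186 replicate 2 (0.0501) or vector replicate 3 (0.0663). Centred by window, PRSS21 and VPS35L (−0.64 ± 0.16) passed, while NDUFB10 (adjusted p = 0.213) and POLR3K (adjusted p = 0.0739) did not.

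The same constructs without arsenic, and at week 29, give values to set beside these. At 0 nM and week 12, where 203 genes were higher (1.43%) and 287 lower (2.02%), 84 of the 131 rises and 93 of the 156 falls were also called in the same direction. These are 64.1% and 59.6% of the calls with arsenic, and 41.4% and 32.4% of those without. At 100 nM and week 29, 45 of 131 and 30 of 156 were called again (34.4% and 19.2%; 69.2% and 51.7% of the calls at week 29). Of the genes tested, 0.864% were called there (0.457% up and 0.408% down), and 3.44% at 0 nM and week 12. At 0 nM and week 29, where 1.76% were higher and 1.1% lower (2.86% in all), it was 69 and 60. None of the 287 was called in the opposite direction in these 3 settings, and 53 were called in all 4. The 4 settings share the clonal lines and 1 estimate of the spread, but no library.

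ZFP42 changed by −3.38 at 0 nM and week 12, −3.77 at 100 nM and week 29 and −2.91 at 0 nM and week 29, and passed in each. RIPK3 changed by −1.57, −1.85 and −1.93 in the same order, and TNFAIP2 by −1.11, −2.11 and −1.82, all past the test. OASL changed by 3.19 without arsenic at week 12 (adjusted p = 1.101e-04) and by 1.37 and 1.39 at week 29 (0.0955 and 0.0549). RSAD2 changed by 3.26, 2.79 and 2.19, with adjusted p of 0.00538, 0.0298 and 0.0549. H19 changed by −3.10, −3.76 and −2.38, with adjusted p of 0.0499, 0.0392 and 0.129.

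Of the 287 calls, 74 (29 higher and 45 lower) were not called in the other 3 settings. Among them DKK1 changed by 0.08 at 0 nM and week 12 (adjusted p = 0.868) and by 0.94 at 100 nM and week 29 (adjusted p = 0.0511). ALDH3A1 changed by −0.81 and −1.51 in these (0.253 and 0.0680), SOX9 by 0.61 and 0.01 (0.0550 and 0.981) and GRB10 by 1.47 and 1.54 (0.110 and 0.151). A call in 1 setting does not show that the settings differ, and the difference itself was tested. The construct effect at 100 nM minus that at 0 nM passed limma in 0 of 14228 genes at week 12, with 421 at an unadjusted p under 0.05 and a smallest adjusted p of 0.977. That difference was 0.92 ± 0.32 for DKK1 and −1.23 ± 0.55 for ALDH3A1. Among the genes with the smallest p in it was ELF3, an epithelial transcription factor (−0.96 ± 0.26, unadjusted p = 0.00164 in limma).

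The effect at week 29 minus that at week 12, both with arsenic, also passed in 0 genes with limma, with 362 at an unadjusted p under 0.05 and a smallest adjusted p of 1. The gene with the smallest p was FOXA1, a pioneer transcription factor, with −1.14 ± 0.24. FOXA1 stood at 38.9, 27.99 and 30.7 FPKM in vector and 39.4, 53.9 and 48.9 FPKM in miR-186 libraries at week 12, a change of 0.54 ± 0.17 (adjusted p = 0.108), and changed by −0.60 at week 29. ADAMTS6, a secreted protease, gave 1.73 ± 0.37, NEK11, a kinase of the DNA damage response, 0.95 ± 0.23 and RPL7AP45 1.23 ± 0.30, a pseudogene whose reads near-identical copies can share. NEK11 fell by 0.81 ± 0.16 at week 12 (adjusted p = 0.0117), and it missed the threshold without miR-186 replicate 2 (0.0777) or vector replicate 2 (0.0739).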

How the data were processed

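RNA of 24 HaCaT libraries was measured by stranded, paired-end poly(A) RNA sequencing, and all were sequenced together, per the labels' protocols. The authors aligned reads with STAR 2.6.0c to GRCh38 and made the deposited FPKM with Cuffdiff 2.2.1, per the submitters' processing notes. Neither the annotation release nor the strand setting of the counting is given in the sources used here. Antisense genes are not named, reads of overlapping genes are uncertain, and without counts the depth of each library is unknown.

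Genes averaging 0.5 FPKM or more across all 24 libraries were fitted as log2(FPKM + 0.5) in limma 3.58.1 (R 4.3.3, trend and robust), with 1 mean for each of the 8 groups, 16 residual degrees of freedom and Benjamini-Hochberg adjustment over all 14228 genes (threshold 0.05). The step was tested on simulated data with normal noise drawn separately for each gene and library. No difference by clone, GC content or chromosome was built in, and genes of the lowest levels were not changed. Of 100 genes changed 2-fold in this comparison 64% were recovered, of 100 changed 4-fold 97%, with 6 false calls in 14090 genes. Rates in the real data can differ from these. Coordinates, GC content and 3' UTRs are from GENCODE 29, which holds 58261 of the 58381 gene IDs. The names of 57740 come from the name table.

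The named genes are ZRANB2 and MIR186, then the 15 largest rises and 15 largest falls whose libraries did not overlap and whose higher group averaged 1 FPKM or more. Added are the called members of each list, or else as many as 4 by smallest p, up to 4 of each chromosome stretch, and the 5 smallest p of each test of a difference. Members and lists were chosen with earlier results of these data known. Some genes under this rule are not printed for brevity. A further 15 were left out after their values were seen, being antisense or without annotation, single markers of other cell types, SEL1L or AP4S1. Of these, 1 was called, and 8 others changed sign under some alternative.

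Replicate numbers were checked as pairs. Deviations from the group means correlated across genes at 0.17, 0.07 and 0.11 for numbers 1, 2 and 3. Between unlike numbers the correlations were all negative, from −0.13 to −0.02. The labels do not tie the numbers to clones, so the main fit did not use them as pairs. Whether they pair the libraries is not settled, and the replicate block is given as an alternative. Alternatives changed the pseudocount (0.1 or 1), the filter (none, or a mean of 2 FPKM), the scaling (median ratio or GC content, a natural spline of 5 degrees of freedom), the moderation, the samples fitted, the replicate block and each library. Window centring was chosen after seeing the data. A few genes of the lists are counted in them but not reported here by name.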

Additional observations from a re-analysis of the deposited data

How the results depend on the processing

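The 287 calls between constructs became 185 without a filter on low values (98 higher, 87 lower), 531 after correction for GC content (276 and 255), and 24 when the 6 libraries were fitted alone (12 and 12). With the replicate number as a block there were 488 (209 and 279), and 819 with the block and the GC correction (410 and 409). Leaving out 1 library gave 101 to 289. The cause was not tested, except that fewer libraries enter the fit on 6 libraries and the fits without 1. A pseudocount of 0.1 or 1, a mean of at least 2 FPKM, median ratio scaling and plain moderation gave 199 to 291. GC correction with window centring gave 275, of which 170 were among the 287. Of 59 called genes tracked one by one, 19 passed in each of the 17 alternatives that tested them, and none changed sign. The filter at a mean of 2 FPKM left some of the 59 untested, and there 39 kept their call and 1 lost it. The block kept all 59 and turned 9 of the 88 tracked genes that had not passed into calls, among them CXCL1, DICER1, FADS2, MMP10, SERPINB7 and SREBF1, and 21 with the GC correction. The GC correction alone also kept the 59 and added 12, among them CXCL1, DICER1, ERBB2, FADS2, FOXA1, KRT10, S100A16, SERPINB7, SREBF1 and TGM1. With window centring 10 of the 59 were lost, including ANOS1, CLDN16, DKK1 and S100A14, and 4 added.

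The difference between doses gave 7 calls, all lower, without a filter and 0 in the other fits on all libraries. Leaving out 1 library gave 0 to 1, with 1 without miR-186 replicate 1 or 3 at 0 nM. The difference between weeks gave 1 call without a filter and 0 in every other fit. FPKM carry no read depth, so no limit from depth was set.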

Other observations

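Numbered zinc finger genes of the ZNF series, mostly transcriptional repressors, held 11 rises and 1 fall among 382 tested (2.88% and 0.262%, beside 0.921% and 1.1% over all genes), with a median of 0.14. On chromosome 19, where many stand in clusters, 10 of 176 rose and 0 fell, while the other 766 genes of that chromosome held 6 rises and 4 falls. ZNF548 changed by 1.45 ± 0.27, ZNF347 by 1.17 ± 0.24 and ZNF329 by 1.16 ± 0.18. The median of the 382 was 0.07 at 0 nM and week 12, 0.13 at 100 nM and week 29 and 0.28 at 0 nM and week 29. Of 23 small nucleolar RNA host genes 3 rose and 0 fell, namely SNHG26 (1.30 ± 0.28), SNHG7 (0.99 ± 0.22) and SNHG3 (0.90 ± 0.22), with a median of 0.39 here, −0.04 at 0 nM and week 12, 0.27 at 100 nM and week 29 and 0.15 at 0 nM and week 29. Of 21 subunits of the V-ATPase, the proton pump of lysosomes, 0 rose and 3 fell. These were ATP6V1B1 (−2.03 ± 0.33), ATP6V0E2 (−1.39 ± 0.36) and ATP6V1D (−1.06 ± 0.22), the last of them on chromosome 14. The choice of these 3 families and of their named genes was made with the values known.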
